A study of Mus musculus with 4 samples.

Results

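Tissue residency regulators and egress genes were examined in NKT cells of the small intestinal lamina propria (SI-LP). The 9 genes were chosen by symbol, with no threshold on their values: *Klf2*, *Klf3* and *S1pr1* on the egress side, *Cd69* and *Cd44* as surface molecules of retained and antigen-experienced cells, and *Zfp683*, *Prdm1*, *Bhlhe40* and *Hopx* as transcriptional regulators of resident lymphocytes. Of these 9, 8 were measured, out of 25239 genes in the count table. *Zfp683*, which encodes Hobit, was not analysed here; RefSeq lists it on GRCm38.p6 as a pseudogene on chromosome 4 (134051195 to 134058941). The study sorted NKT cells, a T cell lineage specific for lipids on CD1d, from WT mice of genotype C57BL/6Jax, young adults of both sexes, as live TCR-β+ cells that bound CD1d tetramers loaded with PBS57 and lacked B220, CD11b, CD11c and CD8. Per the methods, mice received an anti-ARTC2 nanobody, which protects NKT cells from death during isolation, before harvest, and the tissue was digested with collagenase. Bulk RNA-seq gave 4 libraries of this 1 condition. The titles mark replicates 3 and 4 as First and replicates 1 and 2 as Second, called the first and second experiment here. What First and Second stand for is not stated, and the library names of these pairs also differ in prefix and lane code. NKT cells of other organs were not analysed here, so the values describe levels and their spread within SI-LP NKT cells.

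Lymphocytes leave tissues along a gradient of the lipid sphingosine-1-phosphate (S1P), which they sense with the receptor S1PR1. The transcription factor KLF2 switches on *S1pr1*, and resident lymphocytes are known to keep this program low. CD69 binds S1PR1 and removes it from the cell surface, while Hobit and Blimp-1 (the product of *Prdm1*) repress egress genes.

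Total counts on genes ran from 3882803 to 8732858 per library, and the 45S ribosomal RNA precursor gene *Rn45s* took 7.36% to 28.1% of them. All 8 T cell markers and all 6 NKT1 markers were measured above the filter, with summed shares of 0.126% to 0.301% and 0.0882% to 0.401% of counts. The NKT1 list includes *Zbtb16*, which the paper counts among markers of NKT2 and NKT17 cells. The 2 CD8 markers, whose protein the gate excluded, took at most 0.000149%. The 18 epithelial markers took 0.0855% and 0.898% of the counts of replicates 1 and 2 and 0.0179% and 2.90% of those of replicates 3 and 4. The 6 plasma cell markers took 0.655% and 0.839% in the second experiment and 0.0114% and 0.0387% in the first. Replicates 2 and 4 therefore had the lower T cell and the higher epithelial share within their experiment, and values of the members are given for each library for this reason.

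The members fell into groups of very different abundance in SI-LP NKT cells. *Bhlhe40*, *Klf3* and *Cd44* were among the most abundant transcripts, *Cd69*, *Hopx* and *Prdm1* lay in the upper part of the range, and *Klf2* and *S1pr1* were close to the limit of detection. Levels of different genes were compared in TPM, which corrects for gene length, and as percentiles among 11689 genes that passed the filter, 10 counts or more in 2 or more libraries. On this scale *Bhlhe40* stood on average at percentile 98.4, *Klf3* at 98.1, *Cd44* at 95.4, *Cd69* at 90.1, *Hopx* at 89.5, *Prdm1* at 80.0, *Klf2* at 19.97 and *S1pr1* at 10.4. The median over the 7 members that passed the filter was 90.1, against 48.1 over all genes tested. *S1pr1* did not pass it and was placed among the same genes by its TPM.

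**Figure D1:**
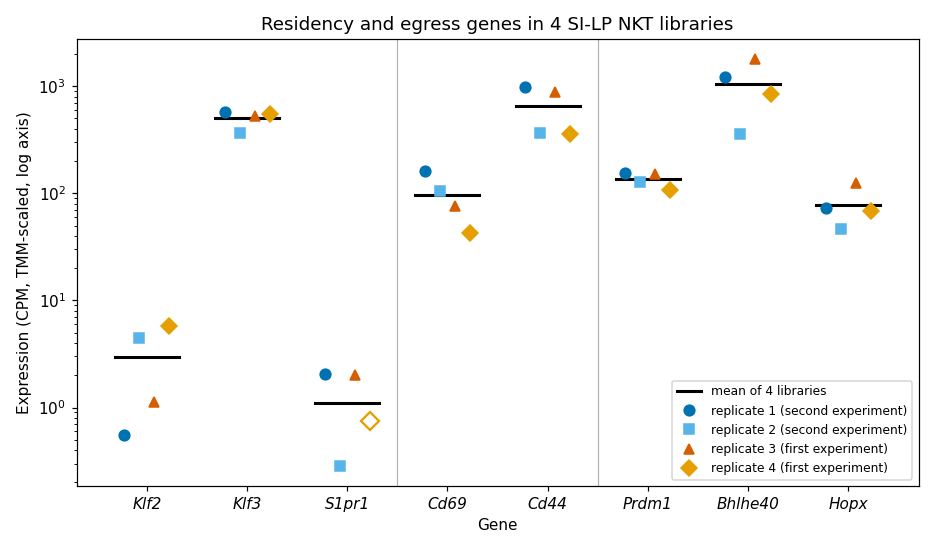
Expression of each measured member (CPM with TMM scaling, log axis) in the 4 SI-LP NKT libraries; symbols are single libraries, horizontal bars are means, and the open symbol marks 0 counts, drawn at the level of 3 counts (0.753 CPM). *Klf2* and *S1pr1* reach at most 5.77 and 2.08 CPM, and the lowest value of the other 6 genes is 42.2 CPM (*Cd69* in replicate 4).

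The egress receptor gene had the lowest mean of the members, although *Klf2* ranked below it in replicates 1 and 3. *S1pr1* (chromosome 3, 115710433 to 115715055, GRCm38, minus strand, 2 exons) had 15, 3, 9 and 0 counts in replicates 1, 2, 3 and 4, or 2.08, 0.287, 2.01 and 0 CPM (counts scaled to a common library size). Replicates 1 and 3 were higher than replicates 2 and 4. At this depth, 3 counts correspond to 0.753 CPM in replicate 4, so a level up to about this value cannot be told from 0 there. The exact 95% Poisson interval, which covers counting error only, was 1.16 to 3.43 CPM in replicate 1 and 0.0592 to 0.840 CPM in replicate 2, and those intervals do not meet. That of replicate 3 (0.919 to 3.81 CPM) met that of replicate 4 (0 to 0.926 CPM) at its edge.

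*Klf2*, the activator of *S1pr1*, was also scarce but was distributed over the libraries in the opposite way. *Klf2* (chromosome 8, 72319062 to 72321654, plus strand, 3 exons) had 4, 47, 5 and 23 counts in replicates 1 to 4, or 0.554, 4.5005, 1.12 and 5.77 CPM. Replicates 2 and 4, where *S1pr1* had 3 and 0 counts, had the most *Klf2*. The Poisson intervals of replicates 2 (3.31 to 5.98 CPM) and 4 (3.66 to 8.66 CPM) lay above those of replicates 1 (0.151 to 1.42 CPM) and 3 (0.362 to 2.60 CPM). Within libraries the TPM of *Klf2* was 0.445 times that of *S1pr1* in replicate 1 (95% exact interval 0.107 to 1.40) and 0.927 times in replicate 3 (0.244 to 3.08), and both intervals include 1. In replicate 2 *Klf2* was 26.1 times *S1pr1* (8.41 to 131), and in replicate 4, against 0 counts, at least 12.8 times if *S1pr1* is set to 3 counts.

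*Klf2* was thus highest in the libraries with the largest epithelial share and the smallest T cell share. Per 1000 counts on the T cell markers, *Klf2* had 0.209, 4.29, 0.303 and 4.13 counts in replicates 1 to 4. The mean of *Klf2* over replicates 1 and 3 alone was 0.835 CPM, against 2.99 ± 2.55 CPM (SD, n = 4) over all libraries, and that of *S1pr1* was 2.04 CPM, against 1.09 ± 1.10 CPM. The share on 5 proliferation markers such as *Mki67* and *Top2a* moved the same way as *Klf2*, at 0.00830%, 0.0600%, 0.00337% and 0.0559% in replicates 1 to 4. Endothelial cells are known to express *Klf2* and *S1pr1* strongly. The summed share of 9 endothelial markers was 0.00633%, 0.00461%, 0.00290% and 0.00183% in replicates 1 to 4, most of it from *Pecam1*, which leukocytes also express. Single genes of this list, named after their values were seen, went different ways. *Pecam1* was lower in replicates 2 and 4, with 56.7, 15.8, 35.5 and 12.3 CPM in replicates 1 to 4. *Egfl7* was higher there, with 4.71, 9.58, 0 and 4.52 CPM, as was *Esam*, with 0, 10.53, 0 and 1.004 CPM. *Cdh5* had 15, 26, 0 and 0 counts, *Emcn* had 2 counts in replicate 2 alone, and *Kdr*, *Tie1*, *Cldn5* and *Tek* were at 0 counts in all 4 libraries. Of 6 B cell markers the most abundant, *Cd79a*, had 269, 288, 0 and 0 counts in replicates 1 to 4, whereas *Cr2*, named after its values were seen, had 2, 68, 2 and 5 and was higher in replicates 2 and 4. The part of epithelial, dividing, endothelial or B cells in the *Klf2* and *S1pr1* counts was not tested. In bulk libraries fewer cells of a type and less RNA per cell cannot be told apart.

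**Figure D2:**
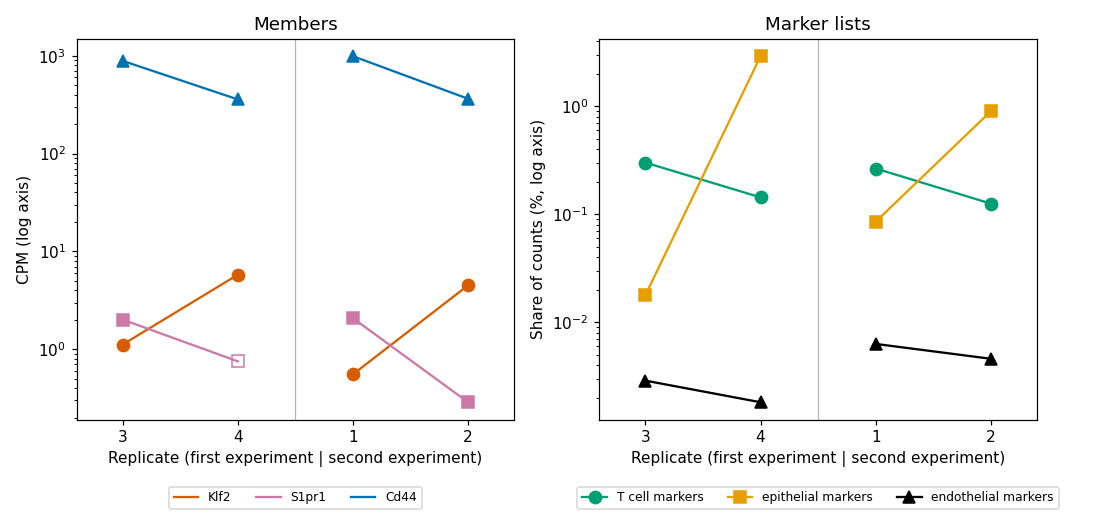
Left, CPM (log axis) of *Klf2*, *S1pr1* and *Cd44*; right, share of counts (%, log axis) on T cell, epithelial and endothelial markers, by replicate, with lines joining libraries of 1 experiment and the open symbol for 0 counts at the level of 3 counts. From replicate 3 to 4 and from replicate 1 to 2, *Klf2* and the epithelial share are higher while *S1pr1*, *Cd44* and the summed T cell and endothelial shares are lower; the endothelial sum is mostly *Pecam1*.

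*Klf3*, which encodes a mostly repressive member of the same zinc finger family, was abundant where *Klf2* was scarce. *Klf3* (chromosome 5, 64803523 to 64830129, plus strand, 6 exons) had 578, 363, 528 and 546 CPM in replicates 1 to 4. In CPM these libraries lay close together, with the highest 1.59 times the lowest. The range of its log2 CPM was 0.67, and only 4.78% of the genes tested had a smaller one, against a median range of 2.31. Against the T cell markers the log2 range of *Klf3* was wider, at 1.45. It then had 218, 346, 143 and 391 counts per 1000 in replicates 1 to 4, higher in replicates 2 and 4 than in the other library of their experiment. The part of other cell types in the *Klf3* counts was not tested. The TPM of *Klf3* exceeded that of *Klf2* 819-fold (95% exact interval 320 to 3006) in replicate 1, 63.4-fold (47.6 to 86.4) in replicate 2, 371-fold (159 to 1145) in replicate 3 and 74.3-fold (49.4 to 117) in replicate 4. The mean within-library difference was 7.52 ± 1.72 log2 units (SD, n = 4), in the same direction in 4 of 4 libraries.

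The promoters of both KLF genes are shown because these members of the same family differed widely in level. Whether the marked sites bear on that difference was not tested. RefSeq sequences of the 250 bases before the start site on GRCm38.p6 were at hand for 5 of the 8 measured members. Capitals mark the GC box GGGCGG and the CACCC box CACCC, on either strand and with overlaps allowed, and 1 palindromic form of the MEF2 site, the 10 capitals near the middle of the *Klf2* sequence; MEF2 factors downstream of the kinase ERK5 are known activators of *Klf2*, and GC and CACCC boxes are bound by the Sp and KLF proteins.
Klf2 (chr8:72318812-72319061, plus strand): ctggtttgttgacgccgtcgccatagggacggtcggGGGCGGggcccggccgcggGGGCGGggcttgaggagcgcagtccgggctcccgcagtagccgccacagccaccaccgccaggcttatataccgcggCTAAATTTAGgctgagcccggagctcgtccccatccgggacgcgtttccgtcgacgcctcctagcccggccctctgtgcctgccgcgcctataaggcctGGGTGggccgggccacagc
Klf3 (chr5:64803271-64803520, plus strand): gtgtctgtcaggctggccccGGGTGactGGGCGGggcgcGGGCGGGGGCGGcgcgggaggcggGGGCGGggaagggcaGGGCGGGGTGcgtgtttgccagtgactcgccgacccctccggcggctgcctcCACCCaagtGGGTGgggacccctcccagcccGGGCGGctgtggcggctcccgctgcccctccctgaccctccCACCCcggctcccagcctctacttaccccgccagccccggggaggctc
The *Klf2* sequence held 1 MEF2 site, which begins 118 bases before the start site, with 2 GC boxes and 1 CACCC box. The *Klf3* sequence held 6 GC boxes and 5 CACCC boxes and no match to these letters of the MEF2 site. Of 32851 promoter sequences of the same length, 0.0396% (13) held these letters of the MEF2 site, 32.7% a GC box and 52.0% a CACCC box.

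The surface molecules of retention and antigen experience were high. *Cd69* (chromosome 6, 129267324 to 129275369, minus strand, 5 exons), whose product holds S1PR1 inside the cell and is also an early activation marker, had 163, 105, 76.1 and 42.2 CPM in replicates 1 to 4. Both libraries of the second experiment lay above both of the first. Its TPM exceeded that of *S1pr1* 147-fold (95% exact interval 88.6 to 263) in replicate 1, 686-fold (234 to 3331) in replicate 2 and 70.8-fold (36.9 to 156) in replicate 3. In replicate 4 it was at least 105-fold higher with *S1pr1* set to 3 counts. The excess of *Cd69* over *Klf2* was 330-fold, 26.2-fold, 76.4-fold and 8.18-fold in replicates 1 to 4, and so was smallest where *Klf2* was highest. Immediate early and stress transcripts, which tissue digestion can induce, took 0.264% to 0.434% of counts (10 genes such as *Dusp1* and *Egr1*). *Cd69* would count as an early response gene but was not listed. The paper reads *Fos*, *Jun* and *Cd69*, higher here than in lymphoid NKT cells, as genes of activation. No undigested sample was among the libraries. The summed share of the 10 genes was larger in replicate 2 than 1 and in replicate 4 than 3, whereas *Cd69* was lower. The single genes were split: 4 (*Egr1*, *Jun*, *Fos* and *Atf3*) were higher in replicates 2 and 4, 4 (*Dusp1*, *Junb*, *Hspa1a* and *Hspa1b*) were lower there, as *Cd69* was, and 2 did neither. *Dusp1* had 820, 283, 798 and 577 CPM in replicates 1 to 4, and *Egr1* 231, 1105, 195 and 939 CPM. The part of digestion or of activation in the *Cd69* level was not tested.

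*Cd44* (chromosome 2, 102811142 to 102901665, minus strand, 19 exons), which encodes a hyaluronan receptor carried by memory T cells and NKT cells, had 989, 363, 886 and 358 CPM in replicates 1 to 4. Replicates 1 and 3 were both above replicates 2 and 4, and the highest was 2.76 times the lowest. Measured per 1000 counts on the T cell markers it was 372, 346, 241 and 256, and its log2 range fell from 1.47 on the CPM scale to 0.63. The TPM of *Cd44* was 255-fold that of *S1pr1* in replicate 1 (95% exact interval 155 to 456), 677-fold in replicate 2 (232 to 3285), 236-fold in replicate 3 (124 to 517) and at least 255-fold in replicate 4 with *S1pr1* set to 3 counts. Crypt epithelial cells also carry *Cd44*, and their part in its counts was not tested.

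**Figure D3:**
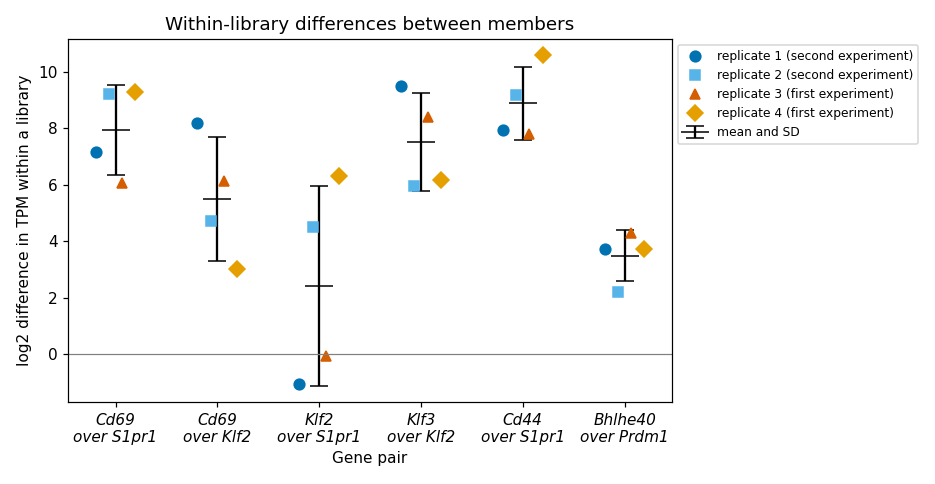
Within-library log2 difference in TPM for 6 gene pairs (0.5 counts added to each gene), with single libraries as symbols and the mean and SD (n = 4) in black. *Cd69* and *Cd44* exceed *S1pr1* in all libraries, whereas *Klf2* exceeds *S1pr1* only in replicates 2 and 4.

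Of the transcriptional regulators, *Bhlhe40* was the most abundant member. *Bhlhe40* (chromosome 6, 108660629 to 108666925, plus strand, 5 exons), which encodes a basic helix-loop-helix repressor needed by resident memory T cells, had 1219.95, 355, 1786 and 847 CPM in replicates 1 to 4. Replicate 2 was the lowest and replicate 3 the highest, 5.04-fold apart. Relative to the T cell markers its log2 range fell from 2.33 to 0.84. Its exons overlap those of *0610040F04Rik* on the other strand, which had 0, 25, 5 and 0 counts; as strand was not used in counting, reads of the shared stretch cannot be told apart. Its paralog *Bhlhe41* had 32, 73, 0 and 0 counts in replicates 1 to 4, at 1.42 ± 1.73 TPM against 903 ± 480 TPM for *Bhlhe40*.

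*Prdm1* (chromosome 10, 44437174 to 44458748, minus strand, 7 exons) had 156, 128, 152 and 106 CPM in replicates 1 to 4. It was the steadiest member, with the highest library 1.47 times the lowest and a log2 range of 0.55, smaller than in all but 2.74% of the genes tested. Plasma cells, which depend on Blimp-1, had a marker share of 0.655%, 0.839%, 0.0114% and 0.0387% in replicates 1 to 4, a 73.6-fold range. Their part in the *Prdm1* counts was not tested. Against the T cell markers the range of *Prdm1* was wider, at 1.57, with 58.6, 122, 41.1 and 76.1 counts per 1000 in replicates 1 to 4, higher in replicates 2 and 4 than in the other library of their experiment. *Bhlhe40* exceeded *Prdm1* in TPM by 3.49 ± 0.89 log2 units (SD, n = 4), in 4 of 4 libraries. Of its relatives, *Prdm2* stood at 97.9 ± 32.4 TPM, against 71.9 ± 16.3 TPM for *Prdm1*, while *Prdm4* (21.9 ± 15.4 TPM) and *Prdm11* (2.54 ± 2.26 TPM) were lower.

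*Hopx* (chromosome 5, 77086986 to 77115123, minus strand, 3 exons), which encodes a small homeodomain protein without DNA binding that is found in NKT1 and other effector T cells, had 72.7, 46.7, 125 and 68.9996 CPM in replicates 1 to 4. Replicate 3 was the highest and replicate 2 the lowest, 2.68-fold apart. In CPM it was lower in replicates 2 and 4 than in the other library of their experiment. Per 1000 T cell marker counts it was 27.4, 44.5, 34.1 and 49.4, so that replicates 2 and 4 were then the higher ones, with a log2 range of 0.85 against 1.42 on the CPM scale. Epithelial reserve stem cells also express *Hopx*, and their part in its counts was not tested.

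The order of the members by mean log2 TPM was *Bhlhe40*, *Klf3*, *Cd44*, *Cd69*, *Hopx*, *Prdm1*, *Klf2* and *S1pr1*. Of the 7 neighbouring pairs, 3 had the same direction in all 4 libraries: *Klf3* over *Cd44* by 1.06 ± 0.66 log2 units (SD, n = 4), *Hopx* over *Prdm1* by 0.92 ± 0.52 and *Prdm1* over *Klf2* by 4.46 ± 1.78. *Cd44* exceeded *Cd69* by 0.95 ± 0.75 in 3 of 4 libraries. For *Bhlhe40* and *Klf3* (0.43 ± 0.75), *Cd69* and *Hopx* (0.12 ± 1.09) and *Klf2* and *S1pr1* (2.42 ± 3.53) the mean difference was smaller than its SD. The difference of *Cd69* minus *Hopx* was 1.06 and 1.07 in replicates 1 and 2 but -0.82 and -0.81 in replicates 3 and 4, so its direction differed between the experiments. With 4 libraries the smallest two-sided p of an exact paired sign-flip test is 0.125, so no p is given for these pairs. The gap between *Prdm1* and *Klf2* was the widest, and in each library the 6 genes above it ranked higher than both genes below it.

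Between the experiments, the only contrast the titles give, no member passed the test. The test had little power. On simulated counts with the dispersion of these libraries it found 0 of 200 genes shifted by 2 log2 units and 0 of 196 shifted by 4. A lack of calls between the experiments therefore does not show that a gene was stable. In the quasi-likelihood fit of edgeR, with p-values adjusted by Benjamini-Hochberg over 11689 genes, 0 of 7 members tested passed an adjusted p of 0.05, as did 0% of all genes; at an unadjusted p under 0.05 the counts were 0 of 7 and 2.12%. *Cd69* came nearest, with a log2 fold change from the first to the second experiment of 1.18 (standard error 0.64, 95% interval -0.35 to 2.72, adjusted p = 0.9997 by edgeR). It was also the 1 of the 7 members whose experiments did not overlap, which held for 29.1% of all genes tested. *Prdm1* had a log2 fold change of 0.14 (95% interval -1.19 to 1.46) and *Klf3* of -0.19 (-1.60 to 1.22), whereas that of *Klf2*, at -0.44, had the widest interval (-5.50 to 4.63). The other 3 lay at 0.12 (*Cd44*), -0.74 (*Bhlhe40*) and -0.70 (*Hopx*). DESeq2, the tool of the study's methods, called 0 of 7 members and 0.351% of all genes. With low counts left in, edgeR called 0 of 8 members and 0.37% of the 16223 genes then tested.

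**Figure D4:**
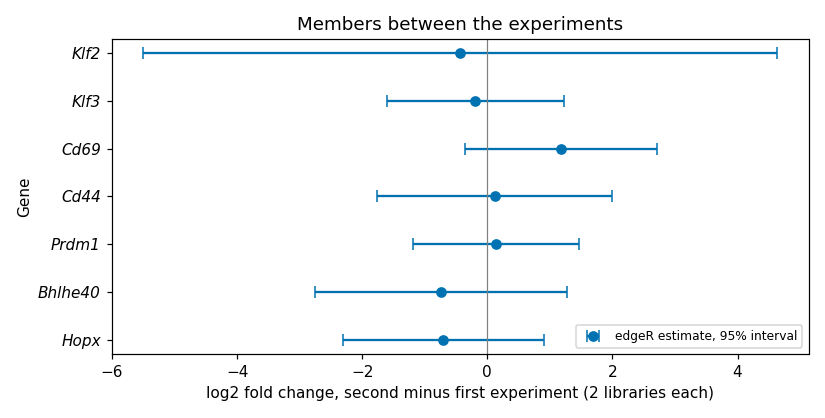
log2 fold change from the first to the second experiment (2 libraries each) for the 7 members tested, as edgeR estimates with 95% intervals. All intervals include 0; *Cd69* has the largest estimate (1.18) and *Klf2* the widest interval.

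Within each experiment the 2 libraries also differed. Of the 7 tested, 5 (*Cd44*, *Cd69*, *Prdm1*, *Bhlhe40* and *Hopx*) were lower in replicate 4 than 3 and in replicate 2 than 1, as were 30% of all genes tested and all 8 T cell markers. *Klf2* was the 1 member higher in both, by 2.26 and 2.87 log2 units, as were 35.4% of all genes. *Klf3* differed by 0.05 and -0.67. Of the 8 members, 4 (*Cd44*, *Bhlhe40*, *Hopx* and *S1pr1*) had a narrower log2 range relative to the T cell markers than in CPM, and 4 (*Klf2*, *Klf3*, *Cd69* and *Prdm1*) a wider one.

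Other genes linked to residency were examined as a list of 18. All 18 passed the filter, and 11 of them had a mean TPM percentile of 90 or more, as did 873 of the 11689 genes tested. The median percentile was 91.7 against 48.1 over all genes tested. *Vps37b* (1003 ± 681 TPM, SD, n = 4) and the chemokine gene *Xcl1* (889 ± 608 TPM) were the highest. The lowest were *Ahr*, which encodes the aryl hydrocarbon receptor (33.3 ± 21.8 TPM), and *Itgae*, which encodes CD103, the integrin that binds E-cadherin on epithelial cells. *Itgae* had 11, 40, 0 and 6 counts in replicates 1 to 4 and stood at percentile 10.05, next to *S1pr1*. Between the experiments 0 of the 18 passed edgeR's adjusted p of 0.05 and 0 had an unadjusted p under 0.05. Over all genes tested the shares were 0% and 2.12%, in a test of little power.

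Of 16 genes of recirculating T cells, 14 passed the filter, with a median percentile of 67.7. The cytokine receptor gene *Il7r* (325 ± 212 TPM) and the integrin gene *Itgb1* (190 ± 31.0 TPM) were the highest. The lowest that passed were *Rasgrp2* (12.6 ± 20.1 TPM) and the lymph node homing receptor gene *Ccr7*, with 0, 93, 46 and 0 counts in replicates 1 to 4. Of those that did not pass, *Eomes*, which encodes a T-box factor and was named after its values were seen, was at 0 in all 4. Between the experiments 0 of the 14 passed edgeR's adjusted threshold and 3 had an unadjusted p under 0.05, against 2.12% of all genes tested. The paper reports *Il7r* and *Ccr7*, as markers of NKT2 and NKT17 cells, to be lower in intestinal than in lymphoid NKT cells, a comparison not made here.

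Among the other S1P receptors 2 were detected above the filter. *S1pr1* itself did not pass it, so its place below pathway genes that passed was largely set by the filter. *S1pr4* had 9.70, 8.91, 72.5 and 28.1 CPM and *S1pr2*, which inhibits migration, 13.9, 3.93, 20.3 and 19.1 CPM in replicates 1 to 4. *S1pr3* and *S1pr5* had 0 counts in all libraries. By TPM, *S1pr4* (31.8 ± 29.6) and *S1pr2* (13.4 ± 6.19) lay above *S1pr1* (0.996 ± 1.004) in each library. The G protein subunit gene *Gnai2*, through which S1PR1 signals, was the highest of the pathway at 432 ± 218 TPM, and *Sgpp1*, an S1P phosphatase, followed at 108 ± 25.5 TPM. *Sgpl1*, the S1P lyase that degrades the ligand, was lower at 24.8 ± 7.80 TPM. Of 14 pathway genes measured, 8 passed the filter, with a median percentile of 70.1, and 1 of them lay below the median of all genes tested; 0 passed edgeR's adjusted threshold between the experiments and 1 had an unadjusted p under 0.05, against 2.12% of all genes.

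Transcripts of known upstream regulators of *Klf2* were more abundant than *Klf2* by mean TPM. *Foxo1*, a known activator of *Klf2*, stood at 143 ± 86.8 TPM and *Mef2a* at 100.2 ± 79.9 TPM. The kinase gene *Mapk7* (ERK5) had 213, 1, 59 and 36 counts in replicates 1 to 4 and was lowest in replicate 2. *Foxo4* was of like level by mean, at 10.6 ± 6.97 TPM. All 8 genes of this list passed the filter, with a median percentile of 66.5, and between the experiments 0 passed edgeR's adjusted threshold and 1 had an unadjusted p under 0.05, against 2.12% of all genes.

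Within the KLF family, *Klf2* had a lower mean TPM than each of the 9 listed relatives that passed the filter, of 15. Between the experiments 0 of these 9 passed edgeR's adjusted threshold and 0 had an unadjusted p under 0.05. The shares over all genes tested were 0% and 2.12%, and the test had little power. *Klf6* (385 ± 92.5 TPM) was next to *Klf3* (595 ± 112 TPM). *Klf11* (18.01 ± 7.49 TPM) and *Klf16* (11.9 ± 7.90 TPM) were the lowest of these 9 by mean, against *Klf2* (4.48 ± 3.78 TPM). The listed relatives that did not pass the filter all lay below *Klf2*, at a mean of at most 1.35 TPM. *Klf5* and *Klf4*, described after their values were seen, are known as factors of crypt and differentiated intestinal epithelium. *Klf5* had 14.7, 174, 5.58 and 193 CPM in replicates 1 to 4, and *Klf4* 41.7, 154, 32.4 and 122 CPM, so that both were higher in replicates 2 and 4, as *Klf2* was. *Klf9*, *Klf10* and *Klf11* were also higher there, *Klf10* with 26.0, 113, 29.0 and 104 CPM in replicates 1 to 4. *Klf13* went the other way, with 257, 106, 256 and 182 CPM. *Klf6* did not share this split, with 726, 512, 527 and 579 CPM, and neither did *Klf7* or *Klf16*. The source of these differences was not tested.

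**Figure D5:**
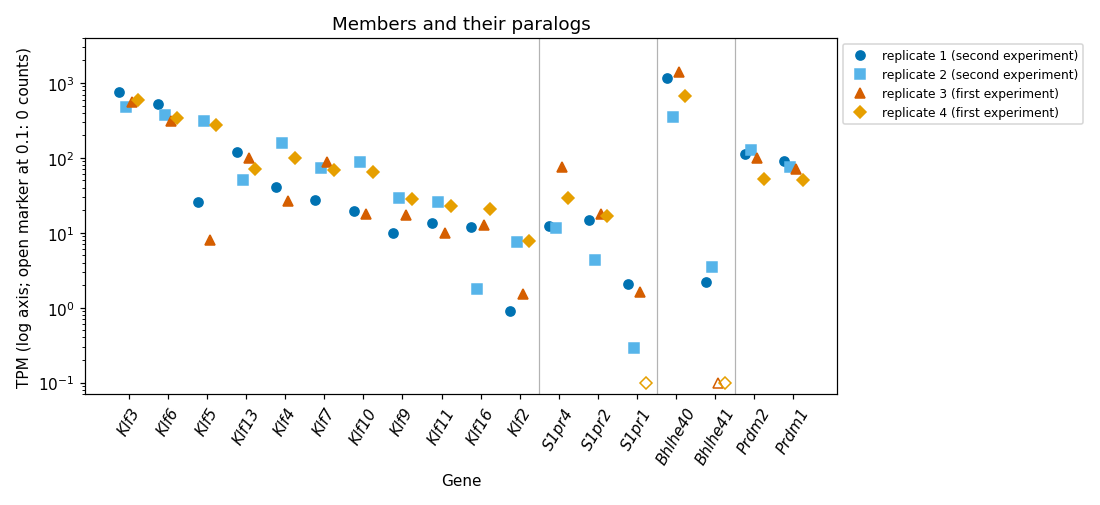
TPM (log axis) of the measured members *Klf3*, *Klf2*, *S1pr1*, *Bhlhe40* and *Prdm1* beside their paralogs in the 4 libraries; open symbols at the bottom mark 0 counts. *Klf2*, *Klf4*, *Klf5*, *Klf9*, *Klf10* and *Klf11* are higher in replicates 2 and 4 than in replicates 1 and 3. *S1pr1* lies below *S1pr4* and *S1pr2* in each library.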

How the data were processed

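Bulk RNA-seq of 4 SI-LP NKT libraries was analysed; nothing in the labels says whether each came from 1 animal, so p-values measure only the spread between these libraries. The authors deposited raw counts per gene. Per the file headers and the methods, reads were aligned with HISAT2 and read pairs counted on exons with featureCounts 1.6.4, primary alignments only, without strand, on an mm10 RefSeq annotation; the methods name GRCm39 and the submitters' processing notes GRCm38.p6, and coordinates follow the deposited GRCm38 positions. Another 2 library columns match no label and were not used. The deposited gene lengths, which are not a measurement, were used for TPM.

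Library sizes for CPM were scaled by TMM (edgeR). The experiments were compared by edgeR (quasi-likelihood, Benjamini-Hochberg) over the 11689 genes reaching 10 counts in 2 or more libraries. For ratios and ranges 0.5 counts were added before taking log2. Intervals are 95% (exact Poisson for CPM, exact binomial for ratios) and cover counting error only, since reads without molecular identifiers are not independent molecules; a floor of 3 counts was used for values at 0. The test was checked on simulated counts of 2 against 2 libraries. Of 200 genes shifted by 2 log2 units it found 197 when dispersion was 0.05 (11574 genes run). When dispersion was that of the real libraries, 0.953, it found 0 (11276 genes run). At that dispersion it also found 0 of 196 genes shifted by 4 log2 units (11289 genes run).

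The members and lists were chosen with earlier results of these data known. Text names all members, the 2 highest and 2 lowest genes by TPM of each list that passed the filter, the S1P receptors and *Bhlhe41*, with some of the 2 most abundant genes of the marker lists. The other markers, the further KLF genes and *Eomes* were chosen after their values were seen. The list of other paralogs (8 genes) had a median percentile of 34.2. Alternatives were DESeq2, other size factors, other filters, a prior count of 2, *Rn45s* left out, another pseudocount, no length correction and leaving out each replicate. Statistics ran in R 4.3.3 (DESeq2 1.42.0, limma 3.58.1, edgeR 4.0.16), the rest in Python 3.11.15 with scipy 1.17.1, pandas 2.3.3, numpy 2.4.6 and matplotlib 3.10.9. Some genes of the lists are not reported here.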

Additional observations from a re-analysis of the deposited data

How the results depend on the processing

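No member tested was called between the experiments by edgeR under any setting run or by DESeq2; *Klf2* could not be tested without replicate 2 or 4 or with 10 counts asked of all 4 libraries. Among all genes, edgeR called 0 (248 at an unadjusted p under 0.05), DESeq2 41 and unfiltered edgeR 60; with 1 replicate left out the count ran from 0 to 7 (7 without replicate 3, 6 without replicate 4). The cause was not tested. The sign of the log2 fold change between the experiments, at p-values far from the threshold, turned for *Klf2* without replicate 1, for *Klf3* under library size alone (0.0283) and without replicate 2, for *Cd44* without replicate 1 or 4 (-0.39) and for *Prdm1* without replicate 4. With 1 replicate left out it ran from -1.19 to 0.40 for *Klf2*, -0.53 to 0.0894 for *Klf3*, -0.74 to 0.90 for *Cd44* and -0.0871 to 0.40 for *Prdm1*. For the members that kept their sign it ran from -1.85 (without replicate 1) to -0.11 (without replicate 2) for *Bhlhe40*, -1.07 (without replicate 4) to -0.22 (without replicate 3) for *Hopx* and 0.82 to 1.66 for *Cd69*. The number of neighbouring pairs with 1 direction in all libraries (3) ran from 3 to 5 with 1 replicate left out (5 without replicate 2), where fewer libraries have to share a direction, and was 2 by CPM in place of TPM. The median percentile of the members (90.1) then ran from 89.5 to 92.8. Without replicates 2 and 4, which have the largest epithelial shares, an alternative chosen after seeing the data, the mean level of *Klf2* fell from 2.99 to 0.835 CPM and that of *S1pr1* rose from 1.09 to 2.04 CPM. The 2 planned pairs with *Zfp683* have no values. No paired analysis was possible because the experiments share no replicate numbers and all libraries are of 1 condition. Depth limits *S1pr1* and *Klf2* most, at 0 to 47 counts per library.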

Other observations

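The genes whose pattern over the 4 libraries was most like that of *Cd69*, by the root mean square difference of centred log2 CPM, were *Cd101* (0.037), which encodes a surface glycoprotein of resident T cells, *Ago1* (0.042) and *Hspa14* (0.064). *Cd101* had 30.3, 20.8, 14.5 and 8.28 CPM in replicates 1 to 4. With only 4 libraries, 125 genes lay within 0.25 of *Cd69*. The most alike to *S1pr1* were *Mx1* (0.064), with 5.82, 0.862, 5.58 and 0.251 CPM, *Zdhhc16* (0.156) and *Nsg2* (0.323), all low in replicates 2 and 4, and 2 genes lay within 0.25.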
